A study of Mus musculus with 10 samples.

Results

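The genes described here are 9 members of the bone morphogenetic protein (BMP) pathway, chosen by symbol from the 31053 genes listed: the ligand gene Bmp4, the receptor gene Bmpr1a, the Smad genes Smad1, Smad5 and Smad6, and the 4 Id genes Id1, Id2, Id3 and Id4. They were followed in E14 mouse embryonic stem (ES) cells, all stably carrying an Esrrb construct that doxycycline (DOX) switches on. Esrrb encodes an orphan nuclear receptor that helps keep ES cells naive. Cells of the first group were grown in N2B27 medium with 2iL, that is 3 µM CHIR99021 (a GSK3 inhibitor), 1 µM PD0325901 (a MEK inhibitor) and the cytokine LIF (4 libraries, no DOX). The other groups had 2iL taken away for 96 h, either without DOX (3 libraries) or with DOX (3 libraries). The titles assign every library to experiment 1 or experiment 2, and libraries are named here by experiment and number (exp1_1). Experiment 1 has 2 libraries in each group. Experiment 2 has 2 libraries in 2iL and 1 in each 96 h group. No line without the construct and no DOX culture in 2iL was analysed here, so DOX itself and the induced construct cannot be told apart.

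BMP ligands bind a pair of type I and type II receptor kinases at the cell surface, and Bmpr1a is one of the type I receptors. The activated receptor phosphorylates Smad1, Smad5 and Smad9, which enter the nucleus with Smad4 and switch on targets, among them the Id genes and the inhibitory Smads, Smad6 and Smad7, which feed back on the receptor. Id proteins have a helix-loop-helix domain without a DNA-binding region and hold E proteins away from DNA. In ES cells, BMP4 and the Id proteins are known for holding back neural differentiation.

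Each library counted reads at the 3′ ends of polyA RNA. Reads in genes ran from 1253620 to 4715450 per library, with a median of 3334324.5, and 12659 to 14723 genes were detected. Levels below are TMM-scaled CPM, which are read counts brought to a common library size, corrected for library composition. Values of the cell type markers are the exception: they are CPM without the correction for composition. A marker list for ES cells (8 genes) summed to 1183 to 1343 CPM in 2iL, 1361 to 1593 CPM without DOX and 1786 to 1947 CPM with DOX. None of its genes was at 0 in a group, but they moved in different directions. Nanog was at 179 to 237 CPM in 2iL, 13.8 to 21.8 CPM without DOX and 21.1 to 55.8 CPM with DOX. Zfp42, Tdgf1 and Sox2 were also lower in all libraries without DOX than in 2iL. Utf1, Dppa4 and Lin28a were higher there, Lin28a at 410 to 499 CPM against 74.2 to 97.9 CPM in 2iL. Pou5f1 overlapped, so the sum does not stand for the single markers. The 96 h DOX library exp1_2 stood apart: it was the shallowest, 14.8% of its reads lay in Gm42418 against 3.39% to 6.61% in the others, and 8 fibroblast markers summed to 2102 CPM against 1.82 to 23.9 CPM in the others. Col1a2 (1288 CPM) and Col1a1 (595 CPM) made up most of this fibroblast sum. Col3a1, Dcn, Postn and Pdgfrb were also highest in that library. Thy1 was only slightly higher there (16.8 CPM, against 14.0 CPM in no-DOX exp1_2), and Lum, with 1 read, was not. The same DOX library also held 70.2 CPM of 8 macrophage markers, against 8.33 to 30.7 CPM elsewhere, where Cd68 made up most of the sum. In exp1_2 Ptprc had 24 reads and Csf1r 27, where the other libraries had at most 2 of either. Lyz2 (22 reads), Tyrobp (5) and Fcer1g (3) were also found in exp1_2. The Cd68 level of exp1_2 was the lowest of all libraries, at 5.58 CPM, and Adgre1 and C1qa were at 0. DOX levels of the tested members are therefore given with and without exp1_2. Esrrb itself lay between 229 and 378 CPM in 2iL, between 13.6 and 32.0 CPM without DOX and between 12.8 and 27.0 CPM with DOX, so reads at the gene's 3′ end did not show the induction. No source used here says whether the construct carries that 3′ end.

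Promoter sequence was available for 8 of the 9 genes in a RefSeq table (GRCm38.p6) that gives 250 bases before and 50 bases after each start site. The sequences of the 4 genes that passed the test after removal of 2iL are shown, because they let the reader see what the falling Bmp4, Id3 and Id4 and the rising Id2 carry beside their start. They are read 5′ to 3′ on the strand of the gene, and capitals mark matches to any of the 5 motifs searched on both strands.
Bmp4 (chr14:46390620-46390919, minus strand): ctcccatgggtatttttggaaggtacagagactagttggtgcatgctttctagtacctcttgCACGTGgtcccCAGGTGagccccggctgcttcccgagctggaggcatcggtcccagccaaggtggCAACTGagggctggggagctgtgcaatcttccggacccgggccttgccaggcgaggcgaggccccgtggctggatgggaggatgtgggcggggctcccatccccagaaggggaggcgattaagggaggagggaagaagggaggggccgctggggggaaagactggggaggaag
Id2 (chr12:25096043-25096342, minus strand): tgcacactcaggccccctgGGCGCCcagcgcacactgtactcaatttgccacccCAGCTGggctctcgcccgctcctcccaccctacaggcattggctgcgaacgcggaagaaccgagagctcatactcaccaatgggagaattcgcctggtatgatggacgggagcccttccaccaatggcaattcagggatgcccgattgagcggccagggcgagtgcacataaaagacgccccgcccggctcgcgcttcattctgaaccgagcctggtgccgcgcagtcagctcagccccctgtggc
Id3 (chr4:136143572-136143871, plus strand): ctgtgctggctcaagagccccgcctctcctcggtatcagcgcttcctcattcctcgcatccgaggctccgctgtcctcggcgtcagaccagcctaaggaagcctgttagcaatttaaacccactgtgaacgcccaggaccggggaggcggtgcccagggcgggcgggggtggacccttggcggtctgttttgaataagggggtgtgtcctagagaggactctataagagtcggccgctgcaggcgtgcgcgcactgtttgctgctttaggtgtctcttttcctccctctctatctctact
Id4 (chr13:48260866-48261165, plus strand): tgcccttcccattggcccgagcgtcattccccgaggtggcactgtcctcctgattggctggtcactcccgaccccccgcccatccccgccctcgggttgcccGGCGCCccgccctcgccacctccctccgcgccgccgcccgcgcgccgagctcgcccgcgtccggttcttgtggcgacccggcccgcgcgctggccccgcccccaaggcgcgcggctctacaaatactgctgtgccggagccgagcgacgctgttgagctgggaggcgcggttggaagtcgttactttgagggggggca

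The motifs were GGCGCC, a GC-rich Smad element, GTCTAGAC, the Smad-binding palindrome, the E-box CANNTG, and the nuclear receptor half-site AAGGTCA with its extended form TCAAGGTCA that Esrrb binds, which contains it. GGCGCC lay 231 bases before the start site of Id2 and 148 bases before that of Id4, and also in the promoters of Bmpr1a and Smad5, while 11.9% of the 32851 promoters in the table hold it. The promoter of Smad6 held GTCTAGAC, across its start site, and 0.213% of promoters hold it anywhere in the window. Neither AAGGTCA (4.72% of promoters) nor TCAAGGTCA (0.423%) was found in the windows of the 8 genes. E-boxes, which 72.3% of promoters hold, were found in Bmp4, Id2, Smad5 and Smad6. The GC content of these windows ran from 60% in Id3 to 79.3% in Bmpr1a, against a median of 52.7% over all promoters, and a match is a description of the letters and not a bound site.

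**Figure D1:**
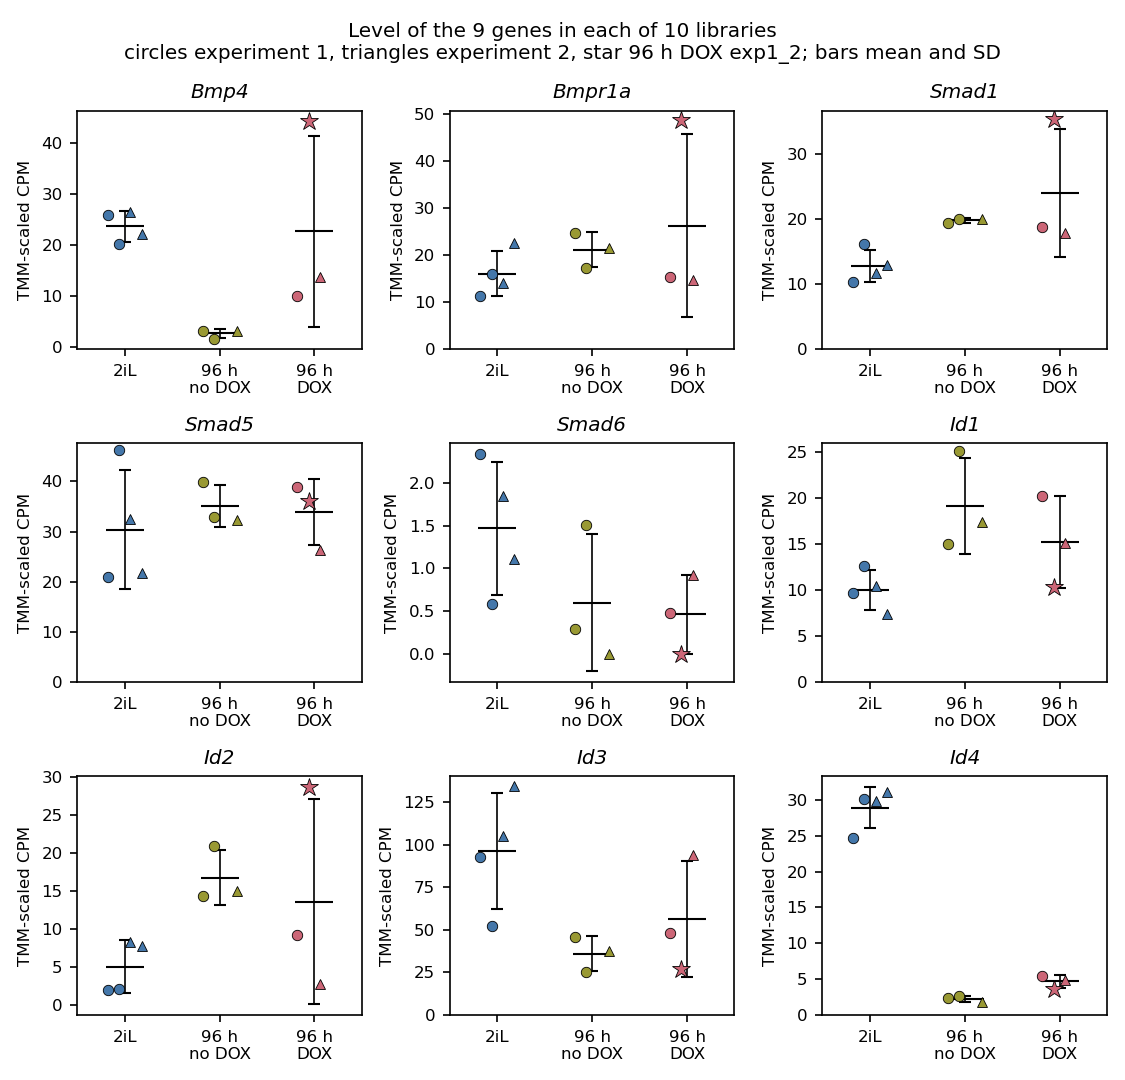
TMM-scaled CPM (vertical axis, linear) of each of the 9 genes in all 10 libraries, by group. Circles are experiment 1, triangles experiment 2 and stars the 96 h DOX library exp1_2, and bars give mean and SD. Bmp4 and Id4 lay at 1.73 to 3.23 CPM and 1.76 to 2.59 CPM without DOX, below every 2iL library, and the star was the highest DOX value for Bmp4, Bmpr1a, Smad1 and Id2.

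Removal of 2iL for 96 h without DOX lowered the ligand gene and part of the Id family, and left the receptor and the signal-carrying Smads without a call. Bmp4, Id4 and Id3 fell and Id2 rose, while Id1, Bmpr1a, Smad1 and Smad5 did not pass the test. That is 4 of the 8 members that passed the filter on low counts, where 20.4% of all 11215 tested genes were called (11.5% higher and 8.9% lower). Smad6 was too low to be tested. The median log2 fold change of the 8 members was 0.30, against 0.00391 over all tested genes.

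Bmp4 (ENSMUSG00000021835, chromosome 14, 46383520 to 46390669 on GRCm38/mm10) encodes the ligand. In 2iL it stood at 26.0 (exp1_1), 20.2 (exp1_2), 26.4 (exp2_1) and 22.2 CPM (exp2_2). At 96 h without DOX it stood at 3.23 (exp1_1), 1.73 (exp1_2) and 3.23 CPM (exp2_2), which were 8 to 11 reads in each library. All libraries without DOX were below all 2iL libraries. The level fell from 23.7 ± 3.01 to 2.73 ± 0.869 CPM (mean ± SD, n = 4 and 3), a log2 fold change of -3.12 ± 0.51 (± SE), which passed edgeR's quasi-likelihood test at an adjusted p of 0.000123. It was -3.24 in a fit of experiment 1 alone. For experiment 2 alone, the log2 ratio of the group means was -2.91. Here and below, fold changes for experiment 2 alone are such ratios, rest on 1 library per 96 h group, and were not tested. In these bulk libraries, fewer cells that express a gene and less RNA per cell cannot be told apart.

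Gm15222, an antisense gene that overlaps Bmp4, moved with it: it held 19 reads in 2iL, 0 without DOX and 5 with DOX, and since no source used here states the strand setting of the counting, its reads and those of Bmp4 cannot be kept apart with certainty. These reads are few beside the 293, 30 and 147 reads of Bmp4 in the same groups.

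Bmpr1a (ENSMUSG00000021796, chromosome 14, 34410734 to 34503341), the type I receptor, ranged from 11.3 to 22.5 CPM in 2iL and from 17.3 to 24.7 CPM without DOX, and these ranges overlapped. Its log2 fold change was 0.40 with a 95% interval from -0.43 to 1.23 (edgeR, adjusted p = 0.563). Smad1 (ENSMUSG00000031681, chromosome 8, 79338395 to 79399518), a Smad that the receptor activates, was 10.3 to 16.1 CPM in 2iL and 19.4, 20.1 and 19.98 CPM without DOX. The Smad1 groups did not overlap, yet the log2 fold change of 0.63 ± 0.34 did not pass (edgeR, adjusted p = 0.219). Smad5 (ENSMUSG00000021540, chromosome 13, 56703010 to 56742377), its partner in the same role, spanned 21.0 to 46.2 CPM in 2iL and 32.3 to 39.9 CPM without DOX, with a log2 fold change of 0.20 and an interval from -0.43 to 0.83. For all 3 of these genes the intervals exclude a fall as large as that of Bmp4.

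Smad6 (ENSMUSG00000036867, chromosome 9, 63953076 to 64022059), an inhibitory Smad, was close to the detection limit everywhere. It held 18 reads over the 4 libraries in 2iL, 8 without DOX and 5 with DOX, or at most 2.33 CPM in any library. Without the filter on low counts its log2 fold change after removal of 2iL was -1.19 ± 1.53 (edgeR, adjusted p = 0.679), so a change of Smad6 was not detectable at this depth.

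Among the Id genes, Id4 (ENSMUSG00000021379, chromosome 13, 48261228 to 48266026) fell the most. It was at 24.6, 30.1, 29.8 and 31.1 CPM in 2iL and at 2.35, 2.59 and 1.76 CPM without DOX. The groups lay far apart, with a log2 fold change of -3.66 ± 0.41 (edgeR, adjusted p = 1.48e-06). In experiment 1 alone it was -3.46, and in experiment 2 it was -4.11. Antisense genes overlap Id4 as well, but they held at most 1 read in a group.

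Id3 (ENSMUSG00000007872, chromosome 4, 136143497 to 136145755) was at 92.9, 52.3, 105 and 135 CPM in 2iL and at 45.8, 25.0 and 37.3 CPM without DOX. All 2iL libraries were above all libraries without DOX, although exp1_2 in 2iL came close. The log2 fold change was -1.42 ± 0.36 (edgeR, adjusted p = 0.00718). Within experiment 1 it was -1.05 and the call was lost (edgeR, adjusted p = 0.139), and within experiment 2 it was -1.68.

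Id2 (ENSMUSG00000020644, chromosome 12, 25093799 to 25097140) went the other way. Its 2iL libraries divided by experiment, with 2.00 and 2.05 CPM in experiment 1 and 8.29 and 7.76 CPM in experiment 2. Without DOX it was at 14.4, 20.9 and 14.98 CPM, above all 2iL libraries. The log2 fold change was 1.74 ± 0.61 (edgeR, adjusted p = 0.0461). Experiment 1 alone gave 3.09 and experiment 2 gave 0.90. The call stands close to the threshold: dropping single libraries ended it in 6 of 10 fits, the highest adjusted p by edgeR being 0.142 without 96 h no-DOX exp1_2 (log2 fold change 1.55), and with the experiment as a batch term (adjusted p = 0.0694 by edgeR). A replicate block ended it too (edgeR, adjusted p = 0.140).

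Id1 (ENSMUSG00000042745, chromosome 2, 152736251 to 152737410), often used as the readout of BMP signalling, was at 9.66, 12.6, 10.4 and 7.39 CPM in 2iL and at 14.98, 25.0 and 17.3 CPM without DOX. The groups did not overlap and all libraries without DOX were higher, but the log2 fold change of 0.93 ± 0.36 did not pass (edgeR, adjusted p = 0.0793). Its 95% interval, 0.17 to 1.69, holds no fall.

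**Figure D2:**
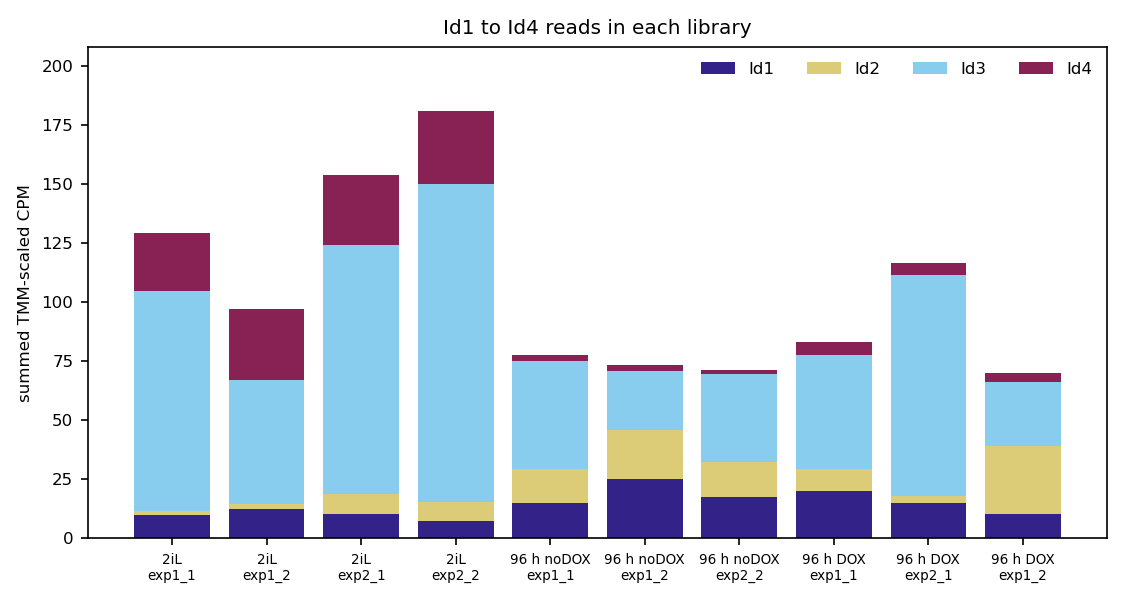
Summed TMM-scaled CPM (vertical axis) of Id1, Id2, Id3 and Id4 in each of the 10 libraries, stacked by gene. Id3 makes up most of each 2iL bar, and the Id4 segment shrinks in all libraries at 96 h.

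The makeup of the Id family therefore differed between the groups. The 4 genes together summed to 140 ± 35.6 CPM in 2iL, 74.1 ± 3.11 CPM without DOX and 89.8 ± 24.0 CPM with DOX. Id4 made up 17.2% to 31.0% of these reads in 2iL and 2.47% to 3.52% without DOX. Id2 made up 1.55% to 5.39% in 2iL and 18.6% to 28.4% without DOX, and Id1 made up 4.09% to 13.0% and 19.3% to 34.0%. Id3 kept the largest share in 2iL, at 53.9% to 74.4%, and in the no-DOX library exp1_2 its share was level with that of Id1, at 34.0% each. Because the 4 shares add up to the whole, a lower share of Id4 raises the others.

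The libraries with DOX show which of these genes differed when DOX was added during the 96 h without 2iL. Esrrb reads did not differ by the test in this comparison (log2 fold change -0.32 ± 0.33; edgeR, adjusted p = 0.704). Bmp4 was higher with DOX, and none of the other members passed. That is 1 of 8 tested members, where 3.1% of all tested genes were called (2.16% higher and 0.945% lower), and the members' median log2 fold change was 0.25 against -0.02 over all tested genes.

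With DOX, Bmp4 was at 9.98 (exp1_1), 13.8 (exp2_1) and 44.2 CPM (exp1_2). All DOX libraries were above all libraries without DOX, and the spread among them came mainly from exp1_2. The mean was 22.7 ± 18.7 CPM over 3 libraries and 11.9 ± 2.72 CPM over the 2 left without exp1_2. The log2 fold change against no DOX was 2.99 ± 0.53 (edgeR, adjusted p = 0.00245). Experiment 1 alone gave 3.42. In experiment 2, with 1 library in each of these groups, the log2 ratio was 2.10 and was not tested. Without exp1_2 it was 2.13 ± 0.46 and was still called (edgeR, adjusted p = 0.0118). The call held in each of the 10 fits with 1 library dropped, with log2 fold changes from 2.13 to 3.39.

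**Figure D3:**
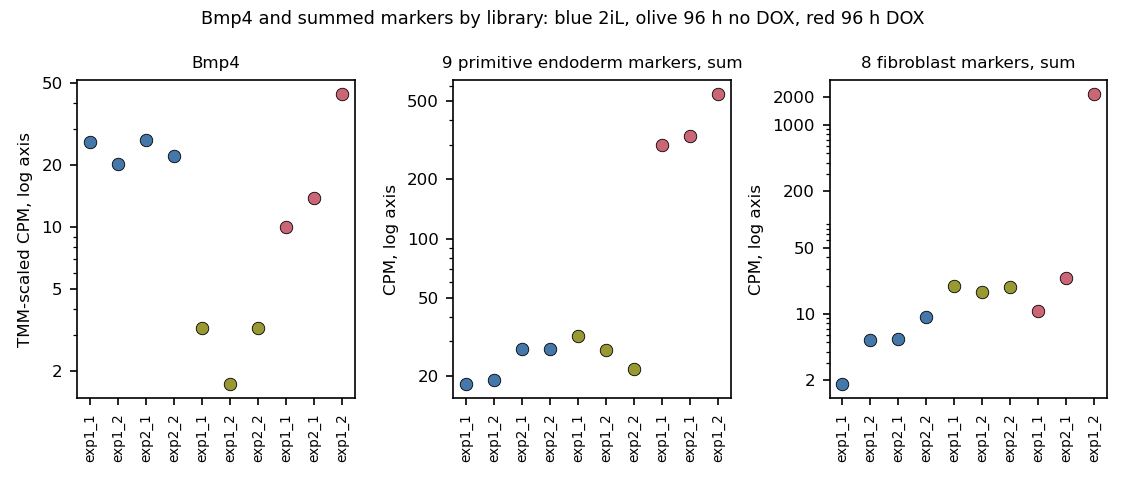
Bmp4 (TMM-scaled CPM) and the summed CPM of 9 primitive endoderm markers and 8 fibroblast markers, each on a log axis, in the 10 libraries. The DOX libraries stand above those without DOX for Bmp4 and for the endoderm markers, at 299 to 542 CPM against 21.5 to 31.8 CPM, and the fibroblast markers reach 2102 CPM in exp1_2.

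Marker lists of other cell types differed between the same groups. The 9 primitive endoderm markers summed to 18.2 to 27.4 CPM in 2iL and 21.5 to 31.8 CPM without DOX. In the DOX libraries exp1_1, exp2_1 and exp1_2 they summed to 299, 334 and 542 CPM, in the same order as Bmp4. Gata6, Gata4, Sox7, Dab2 and Col4a1 (158, 195 and 239 CPM) followed that order, and Sox17, Foxa2, Pdgfra and Lama1 did not. All 9 were detected with DOX, and Sox7 was at 0 in the other groups. The 8 fibroblast markers summed to 10.8 and 23.9 CPM in DOX exp1_1 and exp2_1, close to the 17.0 to 19.9 CPM without DOX, and Bmp4 was higher than without DOX in both of those libraries. In 2iL, where Bmp4 was at 20.2 CPM or more, both lists were low. The 8 neural markers were lower where Bmp4 was higher, at 202 to 713 CPM in 2iL, 912 to 1453 CPM without DOX and 171 to 647 CPM with DOX. The 8 trophoblast markers summed to 80.0 to 100.03 CPM in 2iL, 27.6 to 31.6 CPM without DOX and 30.8 to 55.1 CPM with DOX. This sum was highest in 2iL, as were the means of Id3 and Id4, but Tfap2c alone gave 67.5 to 80.8 CPM there. Cdx2 was high only in 2iL of experiment 2 (13.3 and 20.2 CPM). Gcm1 (at most 0.279 CPM in 2iL, 4.33 to 6.64 CPM with DOX) and Krt7 were higher with DOX than in 2iL. Elf5 was at 0 in all groups. The part of these cell types in the Bmp4 and Id levels was not tested.

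Against 2iL, Bmp4 with DOX gave a log2 fold change of -0.13 with a 95% interval from -1.03 to 0.77 (edgeR, adjusted p = 0.870). This value depended on exp1_2. Without that library it was -0.998 ± 0.41 (edgeR, adjusted p = 0.120), and both remaining DOX libraries lay below all 2iL libraries. Both comparisons with DOX use the same DOX libraries, and the 3 comparisons share groups in pairs, so their values for Bmp4 are not independent.

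The Id genes with DOX gave no call against no DOX. Id4 was at 5.47, 4.92 and 3.68 CPM (exp1_1, exp2_1 and exp1_2), above all libraries without DOX and below all 2iL libraries. Set against no DOX, its difference of 1.09 ± 0.44 on the log2 scale did not pass (edgeR, adjusted p = 0.229), and it was 1.19 without exp1_2, where the mean moved from 4.69 ± 0.913 to 5.19 ± 0.388 CPM. Against 2iL Id4 was lower by -2.57 ± 0.39 on the log2 scale (edgeR, adjusted p = 8.37e-05; -2.47 without exp1_2), and this was the only member called in that comparison, where 16.7% of all tested genes were called (9.84% higher and 6.83% lower).

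Id3 was at 48.0, 93.7 and 27.3 CPM with DOX in the same order of libraries, a range that overlapped both other groups. The log2 fold changes were 0.67 ± 0.38 against no DOX (edgeR, adjusted p = 0.426) and -0.75 ± 0.35 against 2iL (edgeR, adjusted p = 0.165). Without DOX exp2_1, the highest of the 3, the value against 2iL was -1.31 and was called (edgeR, adjusted p = 0.0213). Without exp1_2 the values were 0.97 and -0.45, neither of them called, and the mean was 70.9 ± 32.3 in place of 56.3 ± 34.0 CPM.

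Id2 differed most between the DOX libraries, at 9.27, 2.77 and 28.7 CPM (exp1_1, exp2_1 and exp1_2). Against no DOX its log2 fold change was -0.40 with an interval from -1.73 to 0.93, and against 2iL it was 1.34 ± 0.63 (edgeR, adjusted p = 0.161). In experiment 1 both DOX libraries were above both 2iL libraries, and within that experiment the value against 2iL was 3.16 and was called (edgeR, adjusted p = 0.00794). In experiment 2 the DOX library was below both 2iL libraries, a log2 ratio of -1.54. Without exp1_2 the values over both experiments were -1.46 against no DOX and 0.29 against 2iL, and the mean was 6.02 ± 4.60 in place of 13.6 ± 13.5 CPM.

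Id1 was at 20.2, 15.1 and 10.3 CPM with DOX. These levels overlapped both other groups, with log2 fold changes of -0.30 against no DOX (interval -1.11 to 0.51) and 0.62 against 2iL (interval -0.15 to 1.40). Neither passed edgeR's test (adjusted p = 0.773 and 0.276), and dropping any single library gave Id1 no call. Without exp1_2 its mean was 17.6 ± 3.64 in place of 15.2 ± 4.94 CPM, with log2 fold changes of -0.12 and 0.81.

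The receptor and the signal-carrying Smads gave no call with DOX. Bmpr1a was at 15.4, 14.8 and 48.6 CPM, with exp1_2 far above the other libraries. Its log2 fold change against no DOX was 0.26 (edgeR, adjusted p = 0.837) and turned to -0.48 without exp1_2, where its mean was 15.1 ± 0.492 in place of 26.3 ± 19.4 CPM. Against 2iL the values were 0.66 and, without exp1_2, -0.08. Smad1 was at 18.8, 17.8 and 35.4 CPM, again highest in exp1_2. Against no DOX its log2 fold change was 0.24, or -0.12 without exp1_2. Against 2iL it was 0.87 ± 0.34, with all DOX libraries above all 2iL libraries and no call (edgeR, adjusted p = 0.0873). Without exp1_2 it was 0.52 (edgeR, adjusted p = 0.402), with a mean of 18.3 ± 0.672 in place of 24.0 ± 9.86 CPM. Smad5 was at 39.0, 26.4 and 36.1 CPM, inside the range of the 2iL libraries, where DOX minus no DOX was -0.05 on the log2 scale with an interval from -0.74 to 0.63, and its mean was 33.8 ± 6.57 CPM, or 32.7 ± 8.87 CPM without exp1_2.

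**Figure D4:**
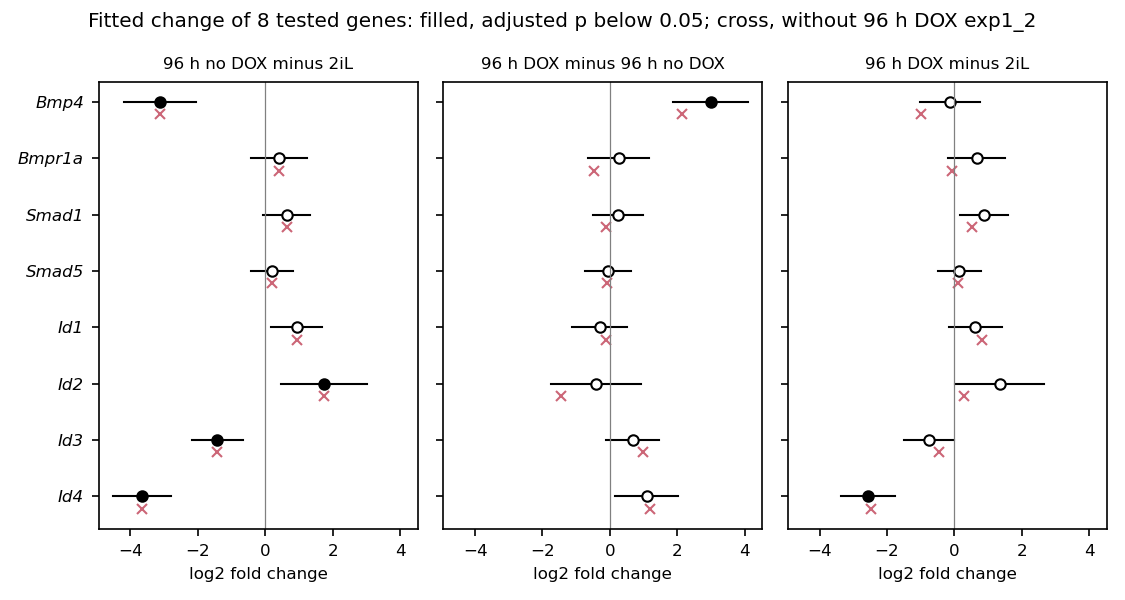
Log2 fold change (horizontal axis) of the 8 tested genes in the 3 comparisons, with 95% intervals as lines, filled points for adjusted p below 0.05 and crosses for the fit without the 96 h DOX library exp1_2. Bmp4 is filled at -3.12 after removal of 2iL and at 2.99 with DOX, and its cross against 2iL sits at -0.998.

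The levels were ordered differently from gene to gene. Bmp4 had its lowest level without DOX, clear of both other groups. Its 2iL and DOX groups overlapped only through DOX exp1_2 (44.2 CPM), and the other DOX libraries lay below all 2iL libraries. There was no call between 2iL and DOX with or without that library. Id4 was ordered 2iL, DOX, no DOX with no overlap between neighbours, although the lower pair did not differ by the test. Id3 had its highest mean in 2iL and Id1 and Id2 had theirs without DOX, and for each of these 3 genes the DOX libraries overlapped both neighbours.

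Genes whose pattern over the 10 libraries was most like that of Bmp4 were Twf1, an actin regulator (Pearson r = 0.981 of log2(CPM + 1)), Klf5, a naive pluripotency factor (0.971), and Tdgf1, the Nodal co-receptor (0.967). Klf5 lay at 265 to 356 CPM in 2iL, 49.8 to 83.1 CPM without DOX and 230 to 612 CPM with DOX, so its groups were arranged as those of Bmp4. For Id1 they were Adam11 (0.969), Gbf1 (0.962) and Zmat3 (0.960). Zmat3, a p53 target, lay at 86.1 to 118 CPM in 2iL, 128 to 195 CPM without DOX and 90.6 to 144 CPM with DOX. These correlations describe 10 libraries that fall into 3 groups, and each is the top of 11215 genes.

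**Figure D5:**
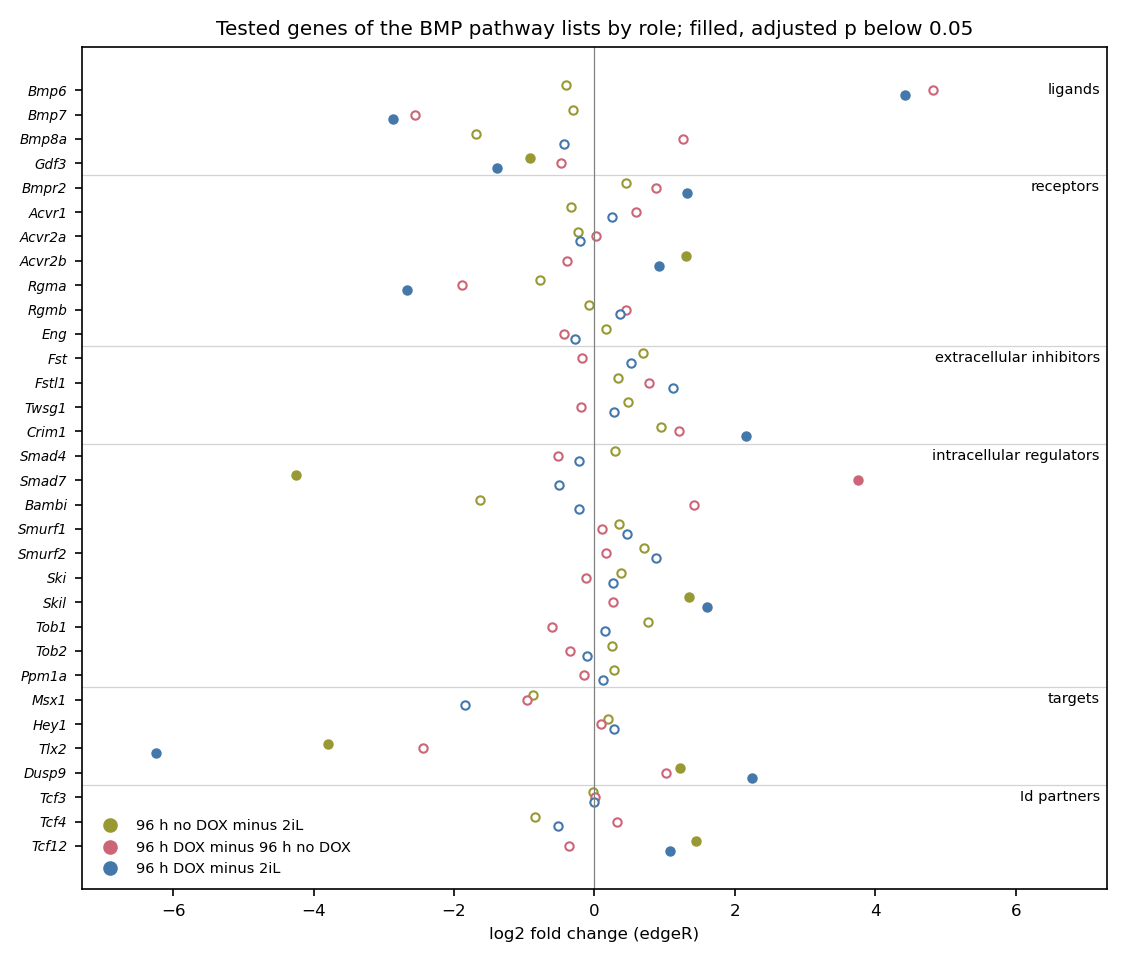
Log2 fold changes (horizontal axis) in the 3 comparisons for the 32 tested genes of the wider BMP pathway lists, arranged by role, with filled points for adjusted p below 0.05. Smad7 holds the filled points at -4.25 after removal of 2iL and at 3.75 with DOX, and no other gene of these lists is filled for DOX against no DOX.

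The rest of the pathway was read from 60 further genes in 6 lists: ligands, receptors and co-receptors, extracellular inhibitors, intracellular regulators, targets and Id partners. Of these, 59 were matched by symbol and 32 were tested. After removal of 2iL 7 of the 32 were called, 4 higher and 3 lower, with a median log2 fold change of 0.22. With DOX against no DOX 1 was called, with a median of 0.02 (3 called without exp1_2: Smad7, Rgma at -2.93 and Dusp9 at 1.32), and with DOX against 2iL 11 were called, 7 higher and 4 lower, with a median of 0.20. These shares compare with 20.4%, 3.1% and 16.7% over all tested genes. In the next paragraphs a DOX level without exp1_2 is given where it bears on a call or moves the value by more than 1.5 times, and those of Gdf3 (91.4 CPM), Bmp6 (7.59 CPM), Acvr2b (80.5 CPM), Bmpr2 (17.6 CPM), Skil (41.0 CPM), Smad4 (68.4 CPM) and Dusp9 (129 CPM) moved by less.

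Smad7, the other inhibitory Smad, was the only one of them called for DOX. It was at 32.0 to 52.3 CPM in 2iL, at 1.47, 2.80 and 2.06 CPM without DOX and at 24.7, 22.7 and 42.7 CPM with DOX (exp1_1, exp2_1 and exp1_2), so both 2iL and DOX stood clear of the libraries without DOX. The log2 fold changes were -4.25 ± 0.40 after removal of 2iL (edgeR, adjusted p = 2.05e-07) and 3.75 ± 0.41 with DOX (edgeR, adjusted p = 2.22e-05), the latter 3.44 without exp1_2. Smad7 also answers Nodal and other TGF-beta signals, so it does not read BMP alone.

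Among ligands, 4 of 12 genes were tested. Gdf3, a ligand of pluripotent cells, fell from 205 ± 32.9 to 108 ± 37.0 CPM after removal of 2iL (log2 fold change -0.91 ± 0.27; edgeR, adjusted p = 0.0174) and was at 77.4 ± 25.4 CPM with DOX (-1.39 ± 0.27 against 2iL; edgeR, adjusted p = 0.00125). The first of these calls held in 6 of 10 fits with 1 library dropped. Bmp7 was lower with DOX than in 2iL, at 0.974 ± 1.43 against 9.07 ± 5.71 CPM (-2.87 ± 0.79; edgeR, adjusted p = 0.0157), though the groups overlapped. Without exp1_2 the DOX mean was 1.46 CPM and the log2 fold change -2.54 (edgeR, adjusted p = 0.0396). Over fits with 1 library dropped the call held in 8 of 10, between -5.16 and -2.39. The 2iL level of Bmp7 was 2.33 and 7.31 CPM in experiment 1 and 10.7 and 15.9 CPM in experiment 2. Within experiment 1 the log2 fold change was -1.52 and was not called (edgeR, adjusted p = 0.388). Bmp6 had 57 reads with DOX, 3 in 2iL and 2 without DOX, and was called against 2iL (edgeR, adjusted p = 0.0131). It was at 3.80, 11.4 and 2.95 CPM in DOX exp1_1, exp2_1 and exp1_2, so for Bmp6 the library that stood apart was the lowest of the 3.

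Of 10 receptors and co-receptors 7 were tested. Acvr2b, a type II receptor that activins and BMPs share, rose from 39.9 ± 11.2 to 98.7 ± 37.3 CPM after removal of 2iL (log2 fold change 1.31 ± 0.28; edgeR, adjusted p = 0.00189), and was at 75.0 ± 16.0 CPM with DOX. Against 2iL that DOX level was also called, at 0.92 ± 0.28 (edgeR, adjusted p = 0.0307), and in 6 of 10 fits with 1 library dropped. Bmpr2, the BMP type II receptor, was at 7.41 ± 4.02, 10.2 ± 2.55 and 18.8 ± 3.97 CPM in 2iL, without DOX and with DOX, and was called only for DOX against 2iL (1.32 ± 0.43; edgeR, adjusted p = 0.0419; 0.0978 without exp1_2). Rgma, a BMP co-receptor, was lower with DOX than in 2iL, at 4.96 ± 5.32 against 26.3 ± 8.56 CPM (-2.67 ± 0.57; edgeR, adjusted p = 0.00254). Without exp1_2 its mean was 1.92 CPM and the log2 fold change -3.71 (edgeR, adjusted p = 6.94e-05). Acvr1, another type I receptor, was at 4.85 to 7.59 CPM on average in the 3 groups and was not called.

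Of the 15 extracellular inhibitors 4 were tested, and only Crim1, a membrane protein that binds BMPs, was called. It was at 17.4 ± 14.3 CPM with DOX against 3.76 ± 2.47 CPM in 2iL (log2 fold change 2.15 ± 0.61; edgeR, adjusted p = 0.0191), a call lost without exp1_2 (9.09 CPM and 1.28; edgeR, adjusted p = 0.217). The classic antagonists had few reads: Nog held at most 3 reads and Chrd at most 17 reads in any group. Of the 17 Chrd reads without DOX, 15 lay in the library exp2_2, at 4.41 CPM.

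Of the 11 intracellular regulators 10 were tested. Smad4, the Smad shared by BMP and Nodal signals, was at 73.8 ± 9.54 CPM in 2iL, 90.6 ± 8.96 CPM without DOX and 62.8 ± 9.74 CPM with DOX, with no call in any comparison. Skil, a Smad corepressor, rose from 13.9 ± 2.10 to 35.4 ± 5.22 CPM after removal of 2iL (1.35 ± 0.28; edgeR, adjusted p = 0.00128) and was at 42.6 ± 5.74 CPM with DOX. That DOX level was called against 2iL too (1.61 ± 0.28; edgeR, adjusted p = 0.000365).

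Smad9, the remaining Smad that BMP receptors activate, fell below the filter and was looked at after its values had been seen. It held 12, 7, 9 and 7 reads in the 2iL libraries and 0 reads in all 6 libraries at 96 h. Set against a floor of 3 reads over each group, that is at least 10.4-fold lower without DOX and at least 7.58-fold lower with DOX. Without the filter edgeR called both (adjusted p = 0.0143 and 0.0278). Smad1 and Smad5 thus stayed measurable at 96 h while Smad9 had no read.

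Of 9 target genes 4 were tested. Dusp9, an ERK phosphatase known as a BMP target in ES cells, was at 22.1 ± 4.59 CPM in 2iL, rose to 51.8 ± 18.7 CPM without DOX (1.22 ± 0.33; edgeR, adjusted p = 0.00967) and was at 104 ± 49.8 CPM with DOX (2.24 ± 0.33 against 2iL; edgeR, adjusted p = 6.14e-05). Dusp9 and Bmp4 thus went opposite ways after removal of 2iL. Tlx2, a homeobox target, fell after removal of 2iL (-3.80 ± 0.84; edgeR, adjusted p = 0.00268), but its 2iL level divided by experiment, with 4.995 and 4.09 CPM in experiment 1 and 58.4 and 46.2 CPM in experiment 2. Within experiment 1 the log2 fold change was -0.85 and was not called (edgeR, adjusted p = 0.704).

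Of the E proteins that Id proteins bind, Tcf12 rose from 14.7 ± 5.27 to 40.2 ± 4.50 CPM after removal of 2iL (log2 fold change 1.45 ± 0.34; edgeR, adjusted p = 0.00393). With DOX it was at 31.8 ± 13.2 CPM and was called against 2iL (1.08 ± 0.35; edgeR, adjusted p = 0.0370), a call lost without exp1_2 (0.74; edgeR, adjusted p = 0.190). Tcf3 was not called, at 76.6 to 77.4 CPM on average in the 3 groups. Tcf4 was at 128 ± 29.7, 71.3 ± 5.29 and 91.4 ± 69.5 CPM in 2iL, without DOX and with DOX and was not called over all libraries, but without exp1_2 it was called lower than 2iL both without DOX (-0.84; edgeR, adjusted p = 0.00450) and with DOX (51.3 CPM and -1.32; edgeR, adjusted p = 0.000668).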

How the data were processed

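Libraries were 3′ digital expression libraries of polyA RNA. The authors deposited read counts per Ensembl gene for each library and a table of CPM values (counts scaled to library size); the tools STAR 2.6.0a and HTSeq and the build mm10 come per the submitters' processing notes. No source used here states the annotation release or strand setting. In each file 5 HTSeq summary lines, 62.7% to 68.4% of reads, were removed. In units of each library's lowest nonzero entry, the deposited CPM values were whole within 0.01 for 100.0% of 310530 entries and equalled the counts; a count test on them called 2289, 348 and 1870 genes in the 3 comparisons, as the counts did.

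Symbols were attached by Ensembl ID (30934 of 31053 matched), and positions came from GENCODE vM21. Genes were filtered with filterByExpr (minimum count 10), scaled by TMM and tested with edgeR 4.0.16 in R 4.3.3 (quasi-likelihood, robust, all 10 libraries, contrasts of group means, Benjamini-Hochberg over 11215 genes, calls below 0.05). Standard errors come from the fold change and the F statistic. Nothing says that libraries of a group came from separate cultures, so p-values reflect only how these samples vary, which may be technical, and bounds from reads cover counting error only. The fit was tested on simulated data. Differences between experiments were tested with an interaction term.

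Members and gene lists were chosen with earlier results of these data known. All 9 members were named; other pathway genes were named where called, at most 4 per role and comparison, with Bmpr2, Acvr1, Smad4 and Smad7 always named; similar patterns were the 3 highest correlations for Bmp4 and Id1, numbered genes skipped. Smad9, Nog, Chrd and the genes of the closing section were named after their values were seen. The alternatives were RLE scaling, other filters, DESeq2 1.42.0, limma-voom (limma 3.58.1), leaving out each library, experiment 1 alone, and a batch term for the experiment or a replicate block of experiment and number.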

Additional observations from a re-analysis of the deposited data

Results flagged for a closer look

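Id2 differed in direction between the experiments when 96 h with DOX was compared with 2iL. In experiment 1 both DOX libraries (9.27 and 28.7 CPM) were above both 2iL libraries (2.00 and 2.05 CPM), and in experiment 2 the DOX library (2.77 CPM) was below both 2iL libraries (8.29 and 7.76 CPM). The difference of the log2 fold changes, experiment 2 minus experiment 1, was -4.66 in an edgeR model with an interaction term. It did not pass after adjustment over all tested genes (edgeR, adjusted p = 0.557). Experiment 2 held 1 DOX library. In 2iL alone Id2 was higher in experiment 2 by 1.97 on the log2 scale (edgeR, adjusted p = 0.639). In 2iL, 8 mesoderm markers summed to 13.3 and 6.97 CPM in experiment 1 and 84.4 and 78.4 CPM in experiment 2. T (3.94 and 1.39 against 69.6 and 61.03 CPM) and Mixl1 carried this, while Eomes did not divide by experiment and Foxf1 was at 0. Their part in the Id2 result was not tested.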

How the results depend on the processing

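Under 19 alternatives, 24 fold changes of members gave 456 values, of which 431 kept direction and side of the threshold, 9 lost a call, 4 gained one and 12 changed sign. The sign changes were all in values not called over all libraries: Bmp4 with DOX against 2iL (0.18 within experiment 1; -0.998 to 0.27 over fits without 1 library), Bmpr1a with DOX against no DOX (-0.11 by limma-voom; -0.48 to 0.56) and against 2iL (-0.084 to 0.96), and with DOX against no DOX Smad1 (-0.12 to 0.43), Smad5 (0.068 within experiment 1; -0.17 to 0.11) and Id2 (0.063 within experiment 1; -1.46 to 0.13). The cause was not tested. Members called for DOX against 2iL numbered 1, but 2 without the filter on low counts, 2 within experiment 1 and 1 to 3 over fits without 1 library, where all genes called numbered 1870, 2240, 926 and 1408 to 1916. Pathway genes called numbered 7 after removal of 2iL (4 within experiment 1), 1 for DOX against no DOX (5 without the filter, 4 by DESeq2, 2 by limma-voom, 1 to 3 over fits without 1 library) and 11 for DOX against 2iL (18 without the filter, 7 by limma-voom, 6 within experiment 1, 7 to 12 over fits without 1 library). Calls over all genes changed too: from 2289 to 1226 within experiment 1 after removal of 2iL, for DOX against no DOX from 348 to 564 without the filter, 563 by DESeq2 and 289 by limma-voom, and for DOX against 2iL to 1768 by limma-voom. The filter removed Smad6 and 28 of 60 pathway genes.

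With a replicate block of experiment plus number, Id2 after removal of 2iL was 1.65 and lost its call (edgeR, adjusted p = 0.140), and pathway genes called for DOX against 2iL numbered 6, with 1591 over all genes. Over 8 pairs with the same label the correlation of deviations ran from -0.10 to 0.20 and passed 0.1 in 1 pair. Over the 25 other pairs it ran from -0.18 to 0.14 and passed 0.1 in 4. The check showed no pairing by label, but with so few pairs it cannot exclude one.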

Other observations

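Several pathway genes below the filter on low counts had reads in DOX libraries, and they were chosen after their values were seen. Bmp3, a ligand, held 32 reads with DOX and Grem1, a secreted BMP antagonist, held 14, and all of them lay in the library exp1_2. Nbl1, another antagonist, had 31 of its 32 DOX reads there. In the same library 8 fibroblast markers summed to 2102 CPM, most of it from Col1a1 and Col1a2. Bmp2, a ligand close to Bmp4, spread differently, with 10, 15 and 2 reads in DOX exp1_1, exp2_1 and exp1_2, against 5 reads in 2iL and 2 without DOX in all. Bmper, a secreted BMP regulator, had 30, 4 and 16 reads in those 3 libraries, 7 without DOX and 0 in 2iL.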
